A study of Drosophila melanogaster with 8 samples.

Results

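The mitochondrial ribosome is assembled inside mitochondria from RNA encoded by mtDNA and from proteins encoded in the nucleus. The mRpL genes encode proteins of its large subunit and the mRpS genes proteins of its small subunit. Their mRNAs are transcribed in the nucleus and exported, and the proteins are imported into the matrix, where the finished ribosome translates the mtDNA-encoded subunits of the respiratory chain. The members described here were all genes in the deposited table whose symbol starts with mRpL or mRpS. The rule used names only and found 70 of the 13970 genes listed, 46 for the large and 24 for the small subunit.

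The libraries were made from RNA bound by J2, an antibody against double-stranded RNA (dsRNA), from subcellular fractions of Drosophila melanogaster larvae 4 days after egg laying. PNPase is a 3′ to 5′ exoribonuclease, encoded in flies by CG11337, and the comparison asks which J2-bound RNA differs between fractions of larvae with and without it. There were 2 libraries in each of 4 groups: dmpnpaseKO mitochondria, control mitochondria, dmpnpaseKO cytosol and control cytosol. No library of input RNA before the immunoprecipitation was analysed here.

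The dmpnpaseKO larvae were homozygous for a CRISPR/Cas9 frame-shift deletion (;;dmpnpase-/dmpnpase-), and the control larvae carried no such allele (;;). Both genotypes shared the wDah background, the white Dahomey stock. The mutant allele is a single edited line that is lethal in larvae, and whole larvae were fractionated, so that no single tissue is represented. Nothing in the labels says that the libraries of a group came from separate collections of larvae, and p-values then measure only the spread between these libraries, which may be technical. In such bulk fractions, fewer cells of a type and less RNA per cell cannot be told apart.

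Values are TPM, a measure of transcript abundance that corrects for transcript length and library total but keeps no record of sequencing depth, so the depth behind a value is unknown. The transcript for the targeted gene was too low to check the labels, at 0.0415 and 0 TPM in dmpnpaseKO mitochondria, 0.0197 and 0 TPM in control mitochondria, and listed at 0 in all 4 cytosolic libraries. The share of all genes above 0 TPM ran between 55.0% and 79.1% in dmpnpaseKO mitochondria, between 34.7% and 62.7% in control mitochondria, between 0.437% and 33.9% in dmpnpaseKO cytosol and between 7.04% and 15.0% in control cytosol. One library stood apart: the second dmpnpaseKO cytosol library listed all 81 cytosolic ribosomal protein genes at 0, and the cytosolic comparisons below are also given without it. All 10 larval marker genes, for larval serum, fat body and cuticle proteins, were above 0 TPM in both control mitochondria libraries.

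The mRpL and mRpS mRNAs were scarce in every library. Their mean over the 8 libraries ran from 0.0149 to 0.307 TPM, with a median of 0.0759 TPM, and 68 of 70 stayed below 1 TPM throughout. Means of at least 0.2 TPM were reached by 5 members, or 7.14%, against 12.8% of all genes. No member was listed at 0 in all 8 libraries, and none was above 0 in every one.

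Detection varied widely between libraries, also within a group. In dmpnpaseKO mitochondria 70 and 44 of the 70 members were above 0 TPM, against 50 and 10 in control mitochondria. In dmpnpaseKO cytosol the counts were 18 and 0, against 0 and 2 in control cytosol. The mitochondrial libraries of both genotypes thus overlapped in the number of members listed, since 44 lies below 50. The lowest member value above 0 was 0.0842 TPM in the second dmpnpaseKO mitochondria library and 0.00729 TPM in the first control mitochondria library. These counts therefore do not start from the same lowest level.

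Set beside all genes, the members were listed more often in some libraries and less often in others. They reached 100% and 62.9% in dmpnpaseKO mitochondria, where all genes reached 79.1% and 55.0%. In control mitochondria they reached 71.4% and 14.3%, beside 62.7% and 34.7% of all genes. In the first dmpnpaseKO cytosol library they reached 25.7%, beside 33.9%. Among the mitochondrial libraries, only the second control library listed the members less often than genes at large.

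**Figure D1:**
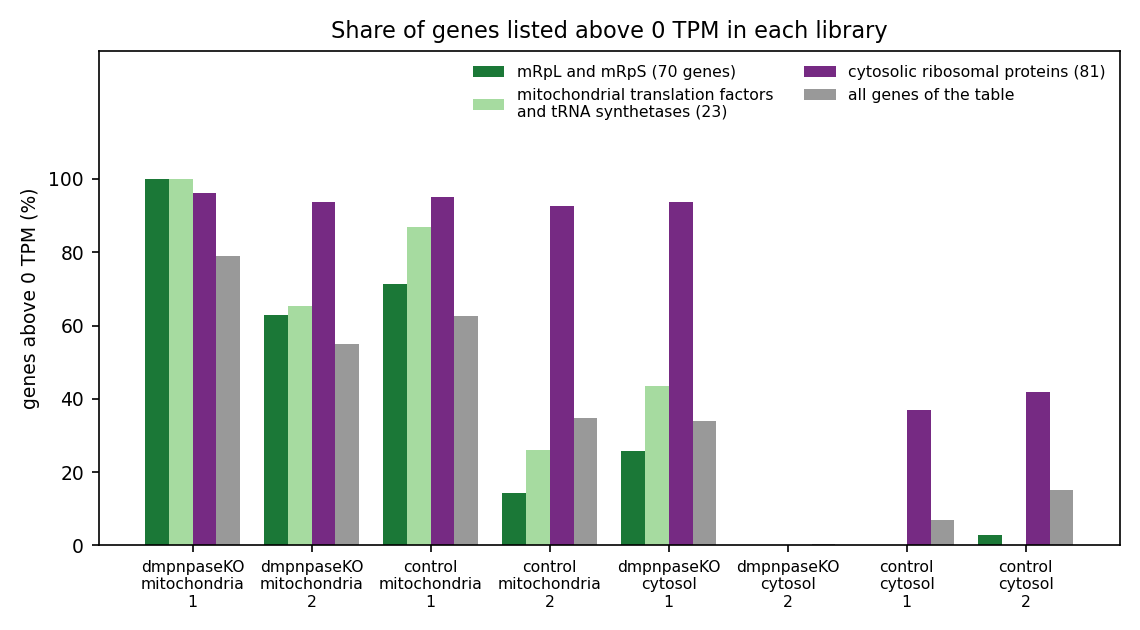
Share of genes listed above 0 TPM (vertical axis, %) in each of the 8 libraries, for the mRpL and mRpS genes, the mitochondrial translation factors and tRNA synthetases, the cytosolic ribosomal protein genes and all genes of the table. The share of mRpL and mRpS genes ranged between 100% in the first dmpnpaseKO mitochondria library and 0% in 2 cytosolic libraries, while cytosolic ribosomal protein genes stayed above 90% in all 4 mitochondrial libraries.

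Reading detection by group, 44 members were above 0 in both dmpnpaseKO mitochondria libraries, against 8 in both control mitochondria libraries. Above 0 in at least 1 library were 70 and 52 members. In the cytosol no member was above 0 in both libraries of either genotype, and 51 of 70 were at 0 in all 4 cytosolic libraries. The 2 members above 0 in control cytosol were mRpS21 and mRpL19, which are named because there were only 2 and were chosen after their values were seen. A dmpnpaseKO mitochondria library was the only place where 13 members were listed above 0.

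The summed TPM of the 70 members was highest in dmpnpaseKO mitochondria, at 32.2 and 14.6 TPM, against 1.68 and 1.21 TPM in control mitochondria. The sums were 2.46 and 0 TPM in dmpnpaseKO cytosol, against 0 and 1.03 TPM in control cytosol. To compare libraries, TPM were scaled so that the mean of 8 rRNA pseudogenes, which the study used as its reference, was equal in all libraries. The scaled sums were 27.8 and 16.04 in dmpnpaseKO mitochondria, 1.36 and 1.29 in control mitochondria, 2.29 and 0 in dmpnpaseKO cytosol, and 0 and 1.88 in control cytosol. Only the mitochondrial groups were separated by genotype without overlap.

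**Figure D2:**
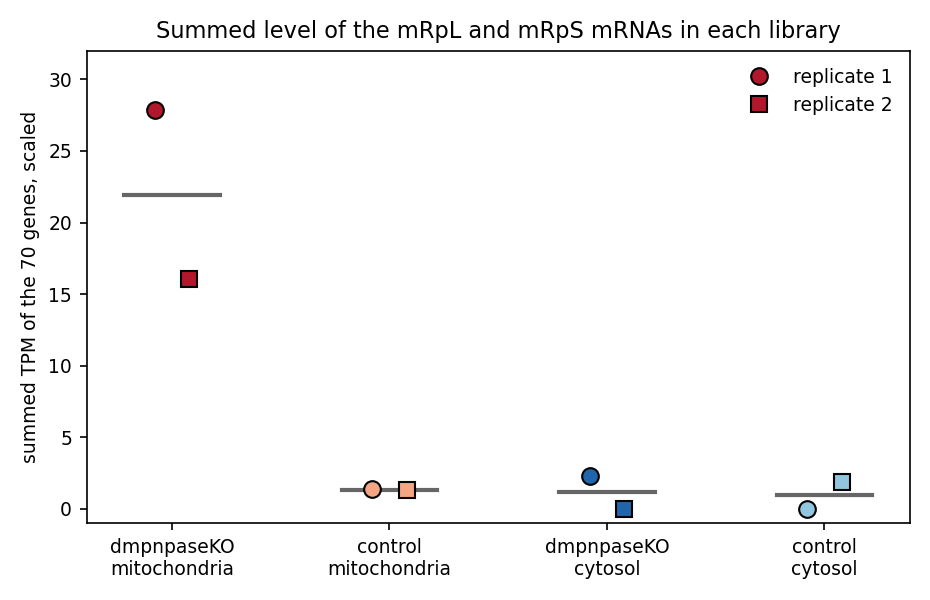
Summed scaled TPM of the 70 mRpL and mRpS genes (vertical axis) in each library, with circles for replicate 1, squares for replicate 2 and a bar at the mean of each group. The dmpnpaseKO mitochondria libraries lie at 27.8 and 16.04, and the other 6 libraries lie between 0 and 2.29.

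On the log2(scaled sum + 0.1) scale, the sum averaged 4.41 ± 0.56 in dmpnpaseKO mitochondria and 0.51 ± 0.048 in control mitochondria (SD, n = 2 each). The difference was 3.90, or 14.9-fold, and it was 4.26 between the first and 3.54 between the second libraries of each genotype. The exact two-sided permutation test gave p = 0.33, the smallest that 2 libraries against 2 can give, so that this design cannot reach 0.05. In the cytosol the difference between genotypes was 0.14 (exact two-sided permutation p = 1), with a sum of 0 in 1 library of each genotype, and it took either sign when a library was left out.

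Nuclear-encoded RNA as a whole took a larger share of TPM in the same libraries. Nuclear-encoded genes together made up 11844 and 5861 TPM in dmpnpaseKO mitochondria, against 1320 and 755 TPM in control mitochondria. The mRpL and mRpS sum was 0.272% and 0.248% of that total in dmpnpaseKO mitochondria, against 0.127% and 0.160% in control mitochondria, so the groups did not overlap. With libraries scaled to the nuclear-encoded total, the log2 difference of the sum was 0.85, and with scaling to the median ratio of genes listed in all libraries it was 1.67. These compare with 3.90 on the pseudogene scale.

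Relative to the cytosolic ribosomal protein mRNAs, whose products form the ribosome outside mitochondria, the order of the genotypes was the opposite. The mRpL and mRpS sum was 1.11% and 1.01% of the cytosolic ribosomal protein sum in dmpnpaseKO mitochondria, against 1.38% and 1.60% in control mitochondria. Scaled to that sum, the log2 difference was -0.48, with no overlap between the genotypes. The cytosolic ribosomal protein sum itself was 2898 and 1439 TPM in dmpnpaseKO mitochondria, against 121 and 75.8 TPM in control mitochondria.

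**Figure D3:**
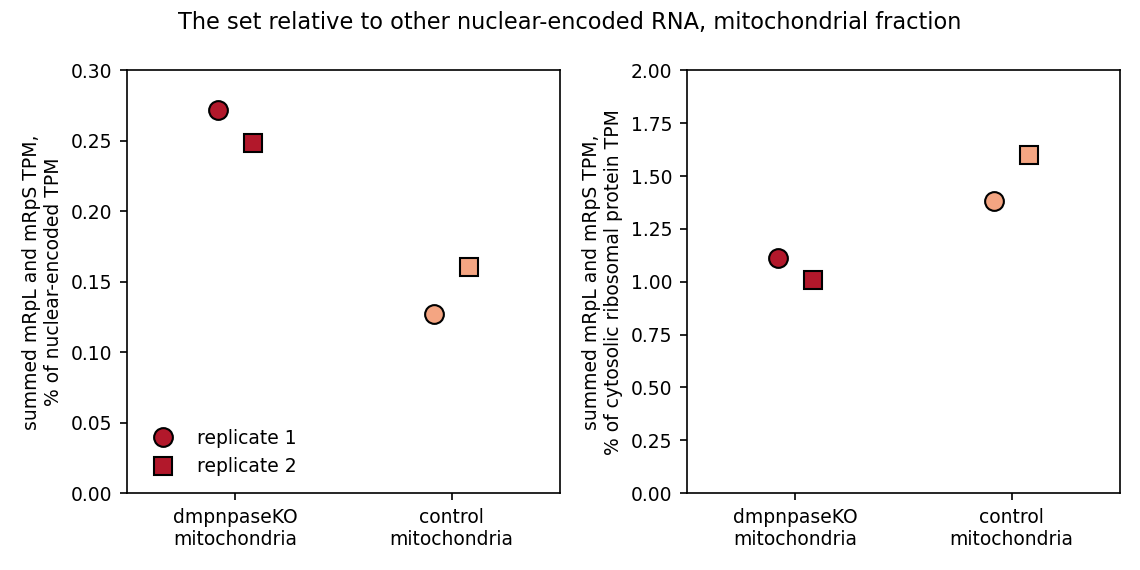
Summed TPM of the mRpL and mRpS genes in the 4 mitochondrial libraries as a percentage of all nuclear-encoded TPM (left) and of cytosolic ribosomal protein TPM (right), with circles for replicate 1 and squares for replicate 2. The dmpnpaseKO libraries lie above the control libraries on the left (0.272% and 0.248% against 0.127% and 0.160%) and below them on the right (1.11% and 1.01% against 1.38% and 1.60%).

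The larval marker genes moved the other way. Their sum was 4.39 and 1.03 TPM in dmpnpaseKO mitochondria, against 143 and 68.7 TPM in control mitochondria. By limma 9 of the 10 fell, with a median log2 change of -5.28, beside 1.11% of 1795 genes called lower. Of the 10, 9 and 3 were above 0 in the dmpnpaseKO mitochondria libraries. Their part in the difference of the mRpL and mRpS sum was not tested. With the markers removed from the nuclear-encoded total, the log2 difference scaled to that total was 0.70.

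Gene by gene, 44 of 70 members (62.9%) had both dmpnpaseKO mitochondria libraries above both control mitochondria libraries, against 62.8% of the 11606 genes above 0 in any library. The members' share was thus that of genes at large. No member had both dmpnpaseKO libraries below both controls. All 26 members that did not separate were listed at 0 in the second dmpnpaseKO mitochondria library. The lowest member value above 0 in that library was 0.0842 TPM. In the first control mitochondria library the members above 0 ran from 0.00729 to 0.0961 TPM. A 0 in the former can therefore not be ranked against the small values of the latter. Both dmpnpaseKO mitochondria libraries lay above both controls for 76 of 81 cytosolic ribosomal protein genes. Among the mitochondrial translation factors and tRNA synthetases they did for 15 of 23.

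The counts were also taken by subunit. Of the large subunit members 46 and 30 of 46 were above 0 in dmpnpaseKO mitochondria, against 33 and 3 in control mitochondria. Of the small subunit members 24 and 14 of 24 were above 0 in dmpnpaseKO mitochondria, against 17 and 7 in control mitochondria. The genotypes separated, with dmpnpaseKO higher, for 30 large and 14 small subunit members.

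The large subunit members summed to 21.3 and 9.19 TPM in dmpnpaseKO mitochondria, against 1.12 and 0.206 TPM in control mitochondria. The small subunit members summed to 10.9 and 5.36 TPM in dmpnpaseKO mitochondria, against 0.553 and 1.01 TPM in control mitochondria. The median gene stood at 0.383 and 0.178 TPM for the large subunit in dmpnpaseKO mitochondria and at 0.405 and 0.126 TPM for the small subunit. Per gene, the subunits therefore lay close together in these libraries, and the larger sum of the large subunit went with its larger number of genes. In the second control mitochondria library the small subunit held most of the sum, with 7 of its 24 genes above 0 and 0.381 TPM in 1 gene.

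**Figure D4:**
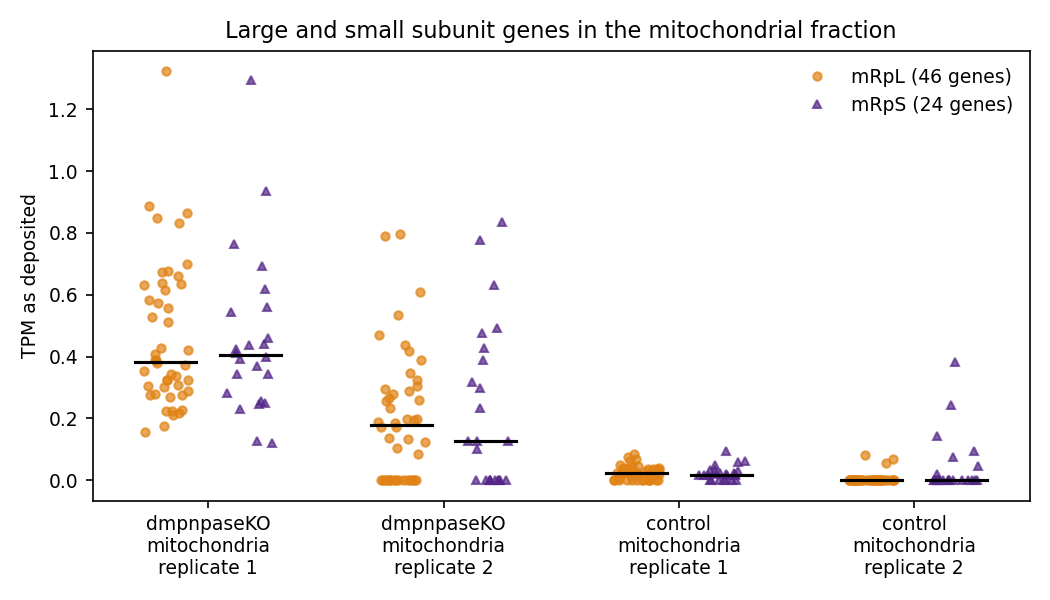
TPM as deposited (vertical axis) of each of the 46 mRpL genes (circles) and 24 mRpS genes (triangles) in the 4 mitochondrial libraries, with a line at each median. Medians are 0.383 and 0.405 TPM in the first dmpnpaseKO library, 0.178 and 0.126 TPM in the second, and at or below 0.0234 TPM in the controls.

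Within the first dmpnpaseKO mitochondria library the members ran from 0.119 to 1.32 TPM, with a median of 0.390 TPM. In the second, the 44 members above 0 ran from 0.0842 to 0.836 TPM, with a median of 0.284 TPM. The first library was higher for 67 of 70 members as deposited and for 60 of 70 after scaling. Across the 70 genes, which are not independent replicates, the 2 libraries were related with Pearson's r = 0.620 on the log2 scale and Spearman's rho = 0.635, and members at 0 in the second library contribute to both.

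Single members are described where their mean reached 0.2 TPM. These were mRpL28 (0.307 TPM), mRpS9 (0.280 TPM), mRpL55 (0.216 TPM), mRpS7 (0.207 TPM) and mRpS22 (0.205 TPM), and mRpL45 lay just outside at 0.192 TPM. All 5 reached 0.2 TPM only through dmpnpaseKO mitochondria, since their means over the other 6 libraries were at most 0.0813 TPM. That they were higher there follows from the minimum. Their mitochondrial values, separations and limma p-values below are therefore a description and support no count or claim of a change. All 5 were listed at 0 in the second dmpnpaseKO cytosol library and in both control cytosol libraries. Changes were tested with limma on log2(scaled TPM + 0.1), where the added constant shrinks the change of genes near 0, with Benjamini-Hochberg adjustment over 1795 genes.

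mRpL28 encodes a large subunit protein of a family shared with bacterial ribosomes and lies at 2L:4973976-4975316 on the plus strand. It stood at 1.32 and 0.790 TPM in dmpnpaseKO mitochondria, against 0.0225 and 0 TPM in control mitochondria, and at 0.322 TPM in the first dmpnpaseKO cytosol library. The mitochondrial groups did not overlap, and the log2 change was 3.34 ± 0.70 (SE, limma adjusted p = 0.00144). It was the highest member in the first library of each dmpnpaseKO fraction.

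mRpL55, at 3R:19094394-19094905 on the minus strand, encodes a large subunit protein with no bacterial counterpart. It stood at 0.865 and 0.795 TPM in dmpnpaseKO mitochondria, against 0.0698 and 0 TPM in control mitochondria. It was the only one of the 5 listed at 0 in all 4 cytosolic libraries. As deposited, its dmpnpaseKO mitochondria libraries were the closest to each other of the 5. After scaling they were 0.748 and 0.877, and those of mRpS22 were closer, at 0.660 and 0.695. The log2 change in mitochondria was 2.86 ± 0.53 (SE, limma adjusted p = 0.000834).

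mRpS9, of the small subunit, belongs to a family whose bacterial member reaches the peptidyl-tRNA site, and lies at 3R:7889277-7902667 on the minus strand. It stood at 1.30 and 0.779 TPM in dmpnpaseKO mitochondria, against 0.0626 and 0 TPM in control mitochondria, and at 0.104 TPM in the first dmpnpaseKO cytosol library. Its log2 change in mitochondria was 3.14 ± 0.61 (SE, limma adjusted p = 0.00100). Exons of ArgRS-m, annotated on the other strand, overlap 325 bases of its exons.

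mRpS22, a small subunit protein particular to mitochondrial ribosomes whose human counterpart is mutated in inherited respiratory chain disease, lies at 3R:27916908-27918248 on the plus strand. It stood at 0.764 and 0.630 TPM in dmpnpaseKO mitochondria, against 0.0592 and 0 TPM in control mitochondria, and at 0.187 TPM in the first dmpnpaseKO cytosol library. The log2 change in mitochondria was 2.68 ± 0.61 (SE, limma adjusted p = 0.00231).

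mRpS7, at 2L:10386662-10387652 on the plus strand, encodes a protein of the head of the small subunit. It stood at 0.693 and 0.475 TPM in dmpnpaseKO mitochondria, against 0.0322 and 0.141 TPM in control mitochondria, and at 0.314 TPM in the first dmpnpaseKO cytosol library. It alone of the 5 was above 0 in both control mitochondria libraries, and its log2 change was the smallest, at 1.89 ± 0.71 (SE, limma adjusted p = 0.0257). The call was lost in 9 of 19 alternative settings, with no minimum on TPM among them (limma adjusted p = 0.0645).

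**Figure D5:**
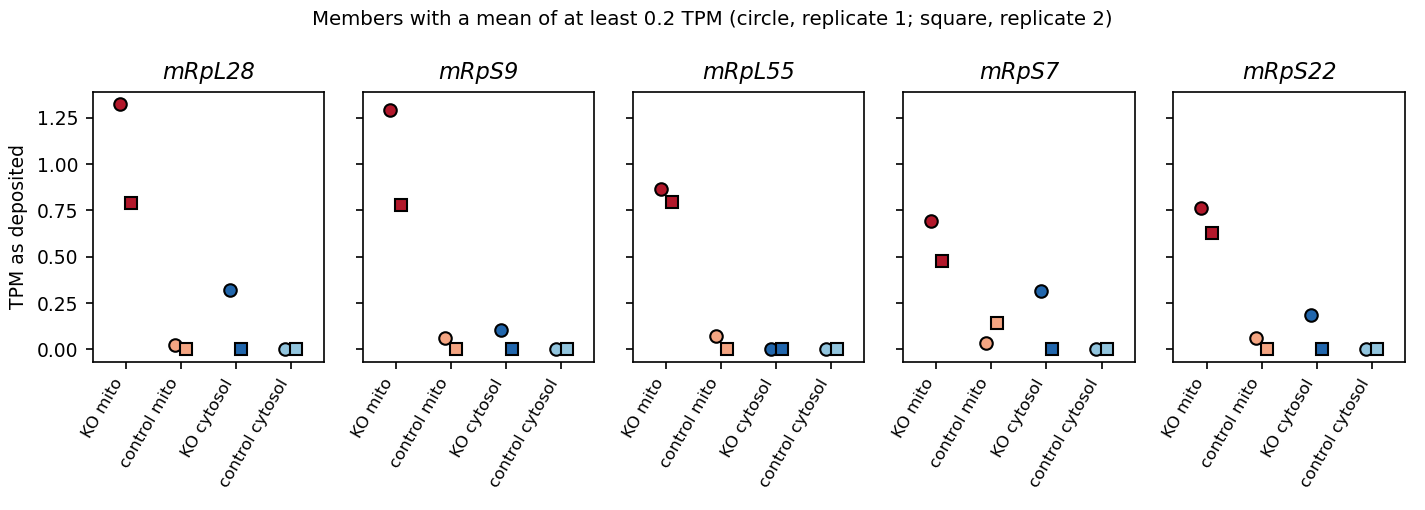
TPM as deposited (vertical axis) of the 5 members with a mean of at least 0.2 TPM, in the mitochondrial and cytosolic libraries of dmpnpaseKO (KO) and control larvae. All dmpnpaseKO mitochondria values, between 0.475 and 1.32 TPM, lie above every other library of the same gene, which are at most 0.322 TPM; the minimum chose genes high in dmpnpaseKO mitochondria.

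In this test 68.4% of the 1795 genes were called higher in dmpnpaseKO than in control mitochondria and 1.11% lower. The 5 members were among the genes called higher, which the minimum on their mean favoured, and nothing about the members is read from that count. None of the 5 passed with median-ratio scaling or with scaling to nuclear-encoded TPM, where the median log2 change of all genes was 0.89 and 0.35, beside 2.64 on the pseudogene scale. Without the second control mitochondria library 2 of 5 passed (mRpL55 and mRpS9), and with a pseudocount of 0.01 it was 3.

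With no minimum on TPM, all 70 members could be tested among 11606 genes. Of these 40 were called higher in dmpnpaseKO mitochondria and none lower (limma, adjusted p under 0.05), or 57.1%, beside 44.8% of all genes called higher and 0.465% lower. They comprised 28 of 46 large and 12 of 24 small subunit members, with log2 changes between 1.09 and 3.34. All 40 were above 0 in both dmpnpaseKO mitochondria libraries, and 4 of the 5 single members were among them, without mRpS7. The median change was 1.54 over the 70 members and 0.87 over all genes, and 67 of the 70 changes were positive. The count was 3 with median-ratio scaling and 0 with scaling to nuclear-encoded TPM. The median change was then 0.58 and 0.53 over the members and 0.16 and 0.045 over all genes. The share of all genes called at these scalings is not given here.

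In the cytosol no member was called between dmpnpaseKO and control larvae, in the 5 tested or in all 70, where 0% of genes were called at either setting. None of the members had an unadjusted p under 0.05, against 66 of 1795 genes for the 5 and 57 of 11606 genes for the 70. The first dmpnpaseKO cytosol library held 18 members above 0, the other 3 cytosolic libraries at most 2, and no member had its groups apart (background 0.362% of genes with dmpnpaseKO higher and 1.03% with it lower). Without the second dmpnpaseKO cytosol library, mRpL28 was the 1 of 5 that passed, at a log2 change of 2.00 (limma adjusted p = 0.0474), beside 8.41% of genes called higher. Of all 70 members none passed without it, and 9 had an unadjusted p under 0.05, beside 1262 of 11606 genes.

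The difference between the dmpnpaseKO effects in mitochondria and in cytosol was called for 1 of the 5, mRpL55, at 2.86 ± 0.75 on the log2 scale (SE, limma adjusted p = 0.0339), beside 7.08% of genes called in that direction and 0.39% in the other. For the others it was 2.65 for mRpS9 (limma adjusted p = 0.0600), 2.34 for mRpL28 (limma adjusted p = 0.107), 1.95 for mRpS22 (limma adjusted p = 0.119) and 0.91 for mRpS7 (limma adjusted p = 0.431). Because mRpL55 was listed at 0 throughout the cytosol, its value equals its mitochondrial change. As with that change, the minimum on the mean favoured this difference. The call was lost in 9 of 18 alternative settings, among them without the second dmpnpaseKO cytosol library (limma adjusted p = 0.0993). Without that library the difference was 2.16 for mRpS9, 1.34 for mRpL28, 1.22 for mRpS22 and -0.080 for mRpS7, and no gene was called. Over all 70 members 26 were called in that direction and none in the other, beside 11.2% and 0.0775% of genes. That count was 0 without any 1 of the 4 cytosolic libraries, and also with a replicate block, with unscaled TPM and with the other scalings above, so these calls depend on those settings. The share of all genes called at these settings is not given here, and nothing about the members is read from these counts.

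Between fractions of dmpnpaseKO larvae, the members' scaled sum was higher in mitochondria by 5.44 on the log2 scale (exact two-sided permutation p = 0.33, the smallest possible), and by 3.15 without the second cytosolic library, whose sum was 0. Both mitochondrial libraries lay above both cytosolic libraries for 42 of 70 members, beside 62.5% of genes, and the members' count is the same without the second cytosolic library, which lists all of them at 0. All 5 single members were called higher in mitochondria, beside 84.2% of genes called higher and 0.167% lower, and 40 of 70 with no minimum on TPM, beside 49.3% of genes. The single members' log2 differences ran from 1.74 for mRpS7 (limma adjusted p = 0.0303) to 3.19 for mRpL55 (limma adjusted p = 0.000216), and 3 passed without the first dmpnpaseKO mitochondria library (mRpS9, mRpL55 and mRpS22). As above, the minimum favoured genes high in dmpnpaseKO mitochondria. Without the second dmpnpaseKO cytosol library mRpS7 was not called, at 0.75 (limma adjusted p = 0.261), and the others were, at 3.19 for mRpL55, 2.46 for mRpS9, 1.50 for mRpS22 and 1.46 for mRpL28. With no minimum, mRpS7 was not called with all libraries (limma adjusted p = 0.0792), and 37 of 70 members were called without that library, beside 30.4% of genes.

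Between fractions of control larvae, no member was called among the 5 or the 70, and none had an unadjusted p under 0.05, beside 0.557% of the 1795 genes called higher and 0.0557% lower in mitochondria, and 0.0172% of the 11606 called higher. The scaled sum differed by 1.68 on the log2 scale (exact two-sided permutation p = 1) and by -0.48 without the first control cytosol library, whose sum was 0. Both mitochondrial libraries lay above both cytosolic libraries for 8 of 70 members, beside 27.3% of genes. Among cytosolic ribosomal protein genes it was 61 of 81.

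Other components of mitochondrial translation were read in the same way. tko and bonsai, small subunit genes with other symbols, stood at 0.374 and 0.166 TPM and at 0.465 and 0.421 TPM in dmpnpaseKO mitochondria, against 0.0253 and 0 TPM and 0.0218 and 0 TPM in control mitochondria. Of the 23 mitochondrial translation factors and tRNA synthetases, 23 and 15 were above 0 in dmpnpaseKO mitochondria, against 20 and 6 in control mitochondria. By limma with no minimum on TPM, 14 of the 23 were called higher, beside 44.8% of all genes. The median log2 change of the 23 was 0.98, beside 1.54 for the members and 0.87 for all genes.

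The rRNAs of the same ribosome are encoded in mtDNA and were far more abundant than the proteins' mRNAs. The large rRNA (mt:lrRNA) stood at 17209 and 63417 TPM in dmpnpaseKO mitochondria, against 14141 and 202522 TPM in control mitochondria, and the small rRNA (mt:srRNA) at 15191 and 26696 TPM, against 12050 and 40813 TPM. The groups overlapped for both, and the log2 changes of -0.62 ± 0.95 and -0.066 ± 0.74 (SE) were not called (limma adjusted p = 0.534 and 0.936).

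Length, position and overlap with other genes were not used by the rule. The members' summed exon length had a median of 783 bases, from 327 for mRpL34 to 2078 for mRpS30, against 1740 bases over 13469 nuclear protein-coding genes of the table. By chromosome arm, 21 members lay on 3R, 15 on 3L, 12 on 2L, 11 on X and 11 on 2R. In the second dmpnpaseKO mitochondria library members above 0 had a median length of 913 bases and those at 0 of 685 bases. In the first dmpnpaseKO cytosol library these were 1020.5 and 725 bases, and in the control mitochondria libraries 844 and 742.5 bases in the first, 733.5 and 786.5 bases in the second. The members above 0 thus had the longer median in 3 of these 4 libraries. The part of length in the counts of members listed was not tested.

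Transcripts from opposite strands that share sequence could in principle pair as dsRNA, so overlap with genes on the other strand was counted. The exons of 40 of 70 members (57.1%) overlapped those of a gene on the opposite strand, against 28.3% of nuclear protein-coding genes. The median TPM of the 40 overlapping and the 30 other members was 0.390 and 0.399 in the first dmpnpaseKO mitochondria library, and 0.199 and 0.128 in the second. The libraries were made with a directional kit, but whether reads of the opposite strand entered a gene's TPM is not stated in the sources used. Neither difference between overlapping and other members was tested.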

How the data were processed

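J2-immunoprecipitated RNA from cytosolic and mitochondrial fractions of larvae was sequenced as paired-end reads in 8 libraries, 2 per group. The authors quantified the reads with salmon v0.11.3 against the BDGP6 cDNA set and deposited TPM per gene, as the labels and methods state. The way transcript values became gene values is not given in the sources used here. TPM keep no depth, and the precision of a value is known only from the 2 libraries. All value columns were matched to a library by name.

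TPM were multiplied by a factor per library that equalised the arithmetic mean of 8 rRNA pseudogenes. Genes averaging 0.2 TPM or more as deposited were tested with limma 3.58.1 (R 4.3.3; empirical Bayes with trend, 4 group means, all 8 libraries) on log2(scaled TPM + 0.1), two-sided, with Benjamini-Hochberg adjustment over all genes tested and a threshold of 0.05. Summed scaled TPM were compared on a log2 scale by exact permutation in Python 3.11.15 (scipy 1.17.1), with 0.1 added because some sums were 0. The limma step was tested on simulated data.

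Members were genes whose symbols start with mRpL or mRpS. Single members were named where their mean was at least 0.2 TPM, with the one just outside. Comparison genes were tko, bonsai and the mtDNA rRNAs, and the lists were cytosolic ribosomal proteins, larval markers, mitochondrial translation factors and tRNA synthetases (which includes Roe1, a mitochondrial chaperone cofactor) and RNA turnover genes. Of the 4 RNA turnover genes measured, 2 were called higher in dmpnpaseKO mitochondria with no minimum on TPM, beside 44.8% of all genes. DAP3 is listed as mRpS29 and was already a member. The members and lists were chosen with earlier results of these data known. Positions and exon lengths came from the Ensembl annotation of the same BDGP6 assembly. Alternatives were other scalings, pseudocounts and filters, limma without trend, a replicate block, fits on the compared libraries alone and leaving out each library.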

Additional observations from a re-analysis of the deposited data

Results flagged for a closer look

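mRpL55 differed between fractions in its dmpnpaseKO effect, by 2.86 on the log2 scale (limma adjusted p = 0.0339). It passed the minimum of 0.2 TPM only through dmpnpaseKO mitochondria, which favoured this call. With no minimum 26 of the 70 members were called in that direction, beside 11.2% of genes, with mRpL55 among them (limma adjusted p = 0.0422). None of the 70 was called with unscaled TPM or with a replicate block, so the call with no minimum is no separate support. mRpL55 was higher in dmpnpaseKO than in control mitochondria in 2 of 2 libraries and was listed at 0 in all 4 cytosolic libraries, so that the difference was measured against values of 0. Over 18 alternative settings the adjusted p ran from 0.00657 to 0.999, and it was 0.0993 without the second dmpnpaseKO cytosol library.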

How the results depend on the processing

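The mitochondrial difference of the summed TPM, 3.90, ran from 3.50 to 4.30 with a library left out and was -0.48 when scaled to cytosolic ribosomal protein TPM, a scaling chosen after seeing the data. The cytosolic difference, 0.14, turned to -0.28 with the geometric mean of the pseudogenes and -0.46 with median-of-ratios scaling, and ran from -2.15 to 2.43 with a library left out. The difference between control fractions, 1.68, ran from -0.48 to 3.83, and that between dmpnpaseKO fractions, 5.44, from 3.15 to 7.73.

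Between genotypes in mitochondria, 5 members were called. This became 0 with median-of-ratios scaling, 0 with nuclear-encoded scaling, 3 with a pseudocount of 0.01, 40 with no filter, and 2 to 5 with a library left out. In the cytosol it was 0 to 1. Between dmpnpaseKO fractions, 5 became 1 with median-of-ratios scaling, 0 with nuclear-encoded scaling, 40 with no filter and 3 to 5 with a library left out. For the difference of effects, 1 became 0 with unscaled TPM, median-of-ratios scaling, nuclear-encoded scaling, a pseudocount of 0.01 or limma without trend, 4 with a pseudocount of 1, 26 with no filter and 0 to 5 with a library left out. Where leaving out a library left 1 in a group, that library was assumed to vary like the rest.

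With no filter, 40 members were called between genotypes in mitochondria and 40 between dmpnpaseKO fractions. In alternatives added after seeing the data these became 3 and 12 with median-of-ratios scaling, 0 and 0 with nuclear-encoded scaling, and 30 to 63 and 33 to 58 with a library left out. The 26 for the difference of effects became 0 with unscaled TPM, median-of-ratios scaling, nuclear-encoded scaling or the replicate block, and 0 to 54 with a library left out. mRpS7 changed sign in the difference of effects, to -0.48 with median-of-ratios scaling, -1.54 with nuclear-encoded scaling and between -0.080, without the second dmpnpaseKO cytosol library, and 1.89 with a library left out, and in mitochondria to -0.14 with nuclear-encoded scaling. Of all 1795 genes, 1247 were called between genotypes in mitochondria (98.4% higher), against 32 with median-of-ratios scaling (56.2% higher), 11 with nuclear-encoded scaling (18.2% higher) and 156 with a pseudocount of 0.01. With no filter it was 5255 of 11606. The share of all genes called is not given in this section for most of the alternatives. Nothing about the members is therefore read from their counts in them.

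A minimum mean of 1 TPM left no member to test. The replicate block raised the members called for the difference of effects to 2 and changed no other count of the 5. Deviations of same-numbered libraries correlated at 0.39 in mitochondria and -0.11 in cytosol, and with 2 pairs this does not decide whether a number marks libraries prepared together. Crossing the dmpnpaseKO cytosol numbers in the block, added after seeing the data, called 5, 0 and 1 members between genotypes in mitochondria, in cytosol and for the difference of effects.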
